A study of Mus musculus with 6 samples.

Results

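Ion channels, pumps and water channels were followed in a mouse array study that set primary Sertoli cells beside the Sertoli cell line MSC-1. The genes were taken from the authors' deposited table, which lists probe sets whose signal changed at least 4-fold. An entry was included when its title held the word channel, aquaporin, or ATPase together with transporting, or when its symbol began like a potassium, calcium, sodium, chloride or TRP channel gene. This gave 27 of the 2406 symbol entries of the table, measured by 37 probe sets, the groups of oligonucleotides on the array that report 1 transcript. Of the 27 entries, 22 were classed as channels, pumps or their subunits, and 5 matched by name only. The 22 include the Clca entries, which are titled as chloride channels but are regulators rather than pores. One group was 3 samples of primary Sertoli cells from mice of the strain C57BL/6 x 129, and the other was 3 samples of MSC-1. Both were left to aggregate for 48 h in Ham's F10 medium with supplements and 10% serum, and the labels name no further treatment. The labels give the mice as 10 to 20 days old in 1 place and 19 to 20 days old in another. As background, MSC-1 comes from a testis tumour of a mouse in which regulatory sequence of the anti-Müllerian hormone gene drove a viral large T antigen. Primary cells and the tumour-derived line thus differ in that oncogene too. The labels leave it unsaid if arrays within a group stem from different cultures or mice.

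Ion channels are membrane pores that let ions run down their gradients, and each family is opened by its own signal, such as voltage, a ligand, acid or calcium. Pumps split ATP to build those gradients. In the seminiferous tubule, Sertoli cells secrete the fluid that carries sperm onwards, which needs sodium, chloride and water to move across the epithelium together. Germ cells carry channels of their own, above all the calcium channel of the sperm tail.

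The values are the deposited signals of 45037 probe sets in 6 arrays, on a linear scale, besides the authors' folds. The array medians lay between 23.0 and 29.8, and a signal below that range says little more than that the probe set was dim. All 3198 listed probe sets had the sign of primary minus MSC-1 signal, so a positive fold of the authors means higher in primary cells. By the signals, 6784 probe sets differed by 4-fold or more, of which 2989 are listed, so the table is not the full set. Only listed probe sets carry gene names here, so nothing can be said of channel genes outside the table. Correlations of log2 signals were 0.928 to 0.949 within the primary group, 0.946 to 0.949 within MSC-1 and 0.786 to 0.796 between the groups. Primary replicate 1 stood apart: among 18417 probe sets with a mean primary signal of 50 or more, 3.74% were at least 2-fold above both other primary arrays there, against 0.0217% for replicate 2 and 0.0434% for replicate 3. In MSC-1 the share was 0.322% for replicate 2, 0.0222% for replicate 1 and 0.0111% for replicate 3.

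Of 14 Sertoli cell markers, 8 were listed, 7 of them higher in primary cells and only the transferrin gene Trf higher in MSC-1. The 7 summed to 7750 to 8356 in primary and 475 to 665 in MSC-1 arrays, while Trf had 370 to 554 in primary and 3503 to 4508 in MSC-1 arrays. Of 14 germ cell markers, 6 were listed, with a summed signal of 5810 to 8560 in primary and 64.5 to 106 in MSC-1 arrays. Of 7 Schwann cell markers, 5 were listed, with 113 to 301 in primary and 5228 to 8341 in MSC-1 arrays. The 2 listed of 7 melanocyte markers summed to 43.2 to 57.4 and 1774 to 2060. Listed and higher in primary cells were 4 of 8 peritubular markers, 3 of 9 macrophage markers and 1 of 6 Leydig cell markers, with sums of 1555 to 2885, 578 to 997 and 459 to 574 in primary and 95.6 to 124, 35.0 to 74.3 and 17.3 to 21.8 in MSC-1 arrays. Of 5 endothelial markers 0 were listed. In such bulk RNA, fewer cells of a type and less RNA per cell cannot be told apart.

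Since the table was selected on the same contrast, the differences between groups are a description, and no p-value is given for them. A log2 difference is the mean log2 signal of primary minus MSC-1 arrays (n = 3 arrays a group). Its standard error is the moderated one of limma, which draws each probe set's spread towards that of probe sets of like level. So it is not the error of the 6 values alone. For a gene with several listed probe sets, the one with the highest mean log2 signal over the 6 arrays stands for it. That rule favours probe sets that are not dim in either group, and so smaller differences. Of the 27 entries, 17 had their higher signal in primary cells and the other 10 in MSC-1, that is 63.0% on the primary side beside 62.0% of the table. The 22 classed as channels, pumps and subunits were divided 12 to 10, or 54.5% on the primary side. The Clca entries, all on the primary side, are counted in the 12. In all 27 entries the arrays of the groups did not overlap, as for 24.1% of all probe sets with primary arrays on top and 27.1% with MSC-1 arrays on top. In limma's fit over all probe sets, the 17 and the 10 entries were all under an adjusted p of 0.05, as were 18.5% of all probe sets in the primary and 20.6% in the MSC-1 direction, and 9.51% and 4.31% when a 4-fold difference was asked for too. Nothing is read from these counts. Centring each array on its median would shift every log2 difference by -0.26 and the primary share of all called probe sets from 47.4% to 35.7%, while the direction of all 27 entries stayed.

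**Figure D1:**
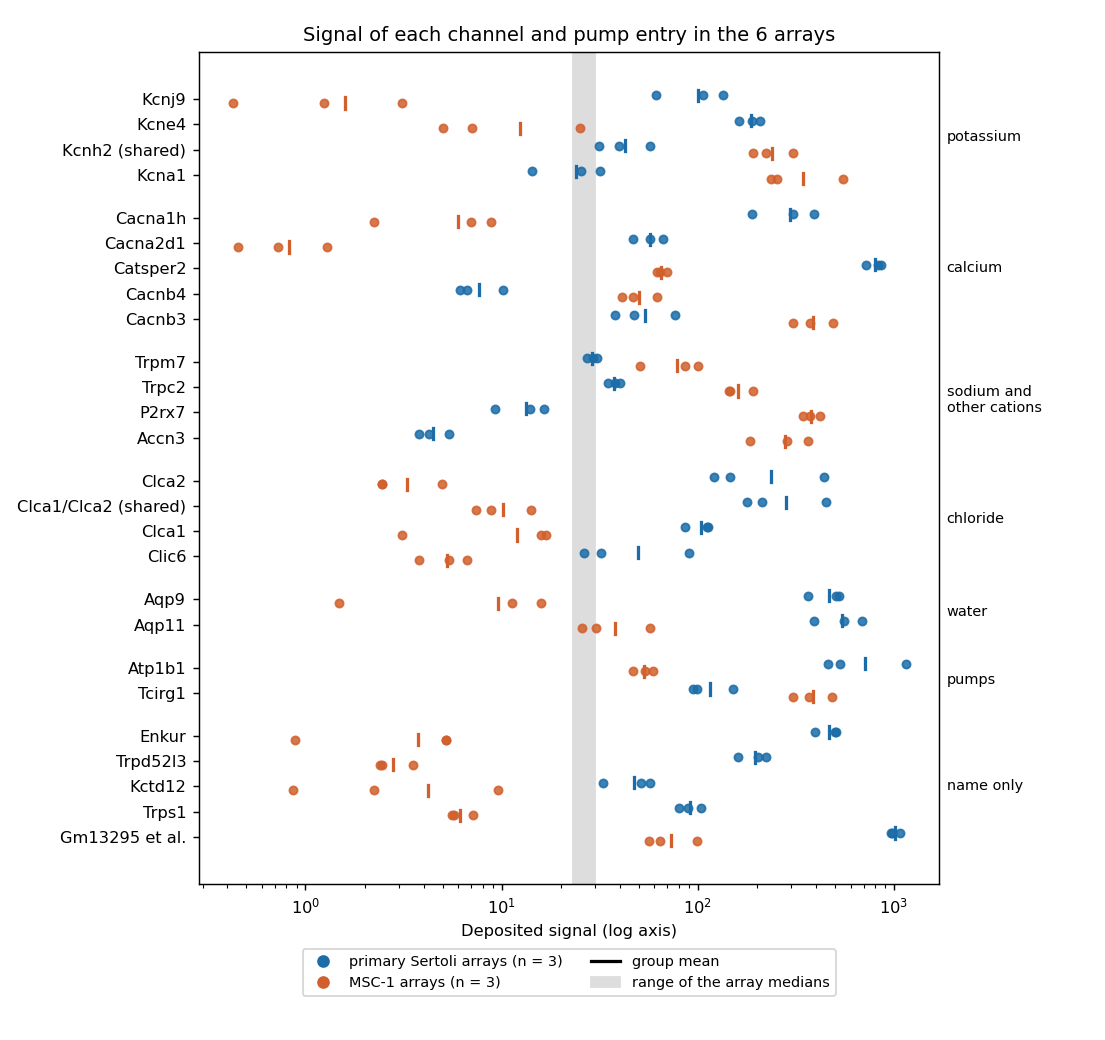
Deposited signal on a log axis of 26 entries in 3 primary Sertoli arrays (blue) and 3 MSC-1 arrays (orange), ordered by ion, with bars for group means and a grey band for the array medians of 23.0 to 29.8. No entry shown has overlapping groups, and for 16 of them the lower group's mean lies to the left of the band.

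The member cation channels opened by ligands or acid, and the member TRP channels, lay on the MSC-1 side, 4 of 4, whereas the related polycystin genes Pkd2l1 and Pkd2l2, drawn from a wider symbol list and described further on, lay on the primary side. P2rx7, the ATP-gated channel that drives inflammasome activation in macrophages, had signals of 14.01, 16.5 and 9.21 in primary and 374, 418 and 345 in MSC-1 arrays. The MSC-1 arrays were close to each other and every primary array was below the array medians. P2rx7 thus differed by a log2 difference of -4.88 ± 0.24 (SE, n = 3), and a further probe set gave -5.36 ± 0.40. These probe sets stand in the authors' deposited table at 23.6-fold and 42.7-fold.

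Accn3, now named Asic3, is the acid-sensing channel of sensory neurons that opens when the outside turns acidic. Its signal was 5.38, 3.78 and 4.25 in primary and 185, 365 and 284 in MSC-1 arrays. The primary signals were far below the array medians, and the log2 difference was -5.92 ± 0.32. Asic3 stands at 15.7-fold in the authors' deposited table.

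Both TRP channels differed less. Trpc2, the channel of the mouse vomeronasal organ, had 37.9, 34.9 and 39.9 in primary and 145, 144 and 191.5 in MSC-1 arrays, a log2 difference of -2.08 ± 0.17. Trpm7, a channel for magnesium and calcium fused to a kinase, had 27.3, 30.4 and 29.1 in primary and 50.4, 99.8 and 85.9 in MSC-1 arrays, a log2 difference of -1.39 ± 0.29. MSC-1 replicate 1 was the lowest of its group and still above every primary array. Trpm7 is one of 2 entries whose signals differ by less than 4-fold, at 2.61-fold, though the authors' deposited table gives 4.13-fold.

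Potassium channel genes were divided evenly, 2 to 2, with both voltage-gated pore genes on the MSC-1 side. Kcna1, a Shaker-type channel that in myelinated nerve lies under the myelin beside the node, had signals of 31.8, 14.2 and 25.4 in primary and 236, 548 and 252 in MSC-1 arrays. MSC-1 replicate 2 was 2.25 times the mean of the other MSC-1 arrays, and the log2 difference was -3.82 ± 0.42, or -3.43 without that array. The other probe sets gave 250.3, 638 and 299, and 287, 671 and 262, in MSC-1 arrays, with log2 differences of -5.64 ± 0.55 and -6.17 ± 0.59. So all 3 probe sets were highest in replicate 2, where the ratio to the others was 2.25, 2.33 and 2.44. The Schwann cell markers moved with it: their summed signal was 8341 in MSC-1 replicate 2 against 5432 and 5228, and the part of this in the Kcna1 values was not tested. Kcna1 stands at 17.2-fold, 34.2-fold and 46.5-fold in the authors' deposited table.

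Kcnh2, the channel that repolarises the heart, shares its probe set with a predicted gene titled as a similar channel. The signals were 31.5, 39.5 and 56.7 in primary and 222, 305 and 192 in MSC-1 arrays, a log2 difference of -2.51 ± 0.27. The authors' deposited table has this probe set at 6.54-fold.

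The potassium channel entries on the primary side were a G protein-gated channel and an accessory subunit. Kcnj9, which joins other inward rectifier subunits to form channels opened by G protein-coupled receptors, had signals of 61.3, 135 and 106 in primary and 3.12, 1.24 and 0.425 in MSC-1 arrays. Primary replicate 1 was the lowest of its group, and all MSC-1 arrays were far below the array medians. Kcnj9 had a log2 difference of 5.93 ± 0.58, whereas the authors' deposited table gives 10.8-fold. Kcne4, a single-span subunit that holds back several voltage-gated potassium channels, had 207, 188 and 161 in primary and 7.08, 5.04 and 25.1 in MSC-1 arrays. For Kcne4 the log2 difference was 4.26 ± 0.58, and it was 4.95 without MSC-1 replicate 3, the brightest MSC-1 array for this gene. Kcne4 stands at 5.08-fold in the authors' deposited table.

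Calcium channel genes split by subunit. The pore gene Cacna1h and the extracellular subunit Cacna2d1 were higher in primary cells, and both cytoplasmic beta subunit genes were higher in MSC-1. Cacna1h, the pore of a low-voltage-activated T-type channel, had 188, 307 and 390.0 in primary and 8.83, 6.98 and 2.24 in MSC-1 arrays. Primary replicate 1 was the lowest of its group. The log2 difference was 5.77 ± 0.56, or 5.17 without MSC-1 replicate 3, and the authors' deposited table gives 22.1-fold. Cacna2d1, which brings high-voltage-activated channels to the surface and binds the drug gabapentin, had 66.2, 57.2 and 46.9 in primary and 1.29, 0.454 and 0.728 in MSC-1 arrays. Its log2 difference of 5.69 ± 0.41 rests on MSC-1 signals near 0, and the authors' deposited table gives 6.57-fold.

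The beta subunits bind the pore of high-voltage-activated channels from the inside and set its traffic and gating. Cacnb3 had 76.2, 47.2 and 37.7 in primary and 487, 307 and 371 in MSC-1 arrays, with a log2 difference of -2.89 ± 0.29. Cacnb4 was dimmer, at 6.17 to 10.1 in primary and 40.8 to 62.0 in MSC-1 arrays, with a log2 difference of -2.72 ± 0.35. For both genes every MSC-1 array was above every primary array. In the authors' deposited table they stand at 7.19-fold and 6.71-fold. No pore gene of a high-voltage-activated calcium channel was listed.

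Catsper2, a pore subunit of the calcium channel of the sperm tail, was higher in primary cells. Its signals were 723, 858 and 824 in primary and 69.6, 62.2 and 63.9 in MSC-1 arrays. Both groups were above the array medians and tight, and the log2 difference was 3.62 ± 0.11. The authors' deposited table puts Catsper2 at 8.32-fold. The listed germ cell markers lay on the same side, as given above, and their part in this value was not tested.

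Entries titled as chloride channels all lay on the primary side, 4 of 4. Apart from Clic6 they are probe sets of Clca1, Clca2 or both, so the 4 are not independent genes. Clca1 and Clca2, calcium-activated chloride channel regulators that are secreted or membrane-bound proteins rather than pores, carry names of the array's annotation. The RefSeq gene table lists these names as synonyms of Clca3a1 and Clca3a2 and also gives them to other genes, so the file's names are kept. The probe set of Clca2 had 439, 145 and 121 in primary and 4.97, 2.44 and 2.44 in MSC-1 arrays. Primary replicate 1 was 3.30 times the mean of the others, and the log2 difference was 6.00 ± 0.57, or 5.42 without that array. The probe set shared by the pair had 449, 179 and 212 in primary and 8.86, 7.41 and 14.1 in MSC-1 arrays, with replicate 1 again highest. Its log2 difference was 4.72 ± 0.41.

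The probe set annotated to Clca1 alone had 85.6, 111 and 113 in primary and 3.10, 16.8 and 15.9 in MSC-1 arrays. Here primary replicate 1 was the lowest of its group, unlike in the Clca2 and the shared probe set. Whether its probes also match related genes was not tested. Clca1 had a log2 difference of 3.45 ± 0.66, or 2.65 without MSC-1 replicate 1. Clic6, of a family of chloride channel proteins that can be soluble or membrane-bound, had 90.6, 26.2 and 32.2 in primary and 5.39, 3.78 and 6.64 in MSC-1 arrays. Only primary replicate 1 was clearly above the array medians. The log2 difference was 3.05 ± 0.56, or 2.50 without that array. In the authors' deposited table, Clca2 stands at 18.4-fold, the shared probe set at 25.6-fold, Clca1 at 5.74-fold and Clic6 at 4.47-fold.

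Both listed aquaporin genes were higher in primary cells. Aqp9, a channel for water, glycerol and urea, had 365, 504 and 526 in primary and 1.48, 15.8 and 11.3 in MSC-1 arrays. Primary replicate 1 was the lowest of its group, and all MSC-1 arrays were below the array medians. Aqp9 had a log2 difference of 6.16 ± 0.85, and it was 5.10 without MSC-1 replicate 1 and 6.82 without MSC-1 replicate 2. The further probe set gave 5.33 ± 0.40, and the authors' deposited table gives 22.2-fold and 11.4-fold. Aqp11, an aquaporin of internal membranes, had 393, 556 and 684 in primary and 30.1, 25.8 and 57.0 in MSC-1 arrays. Its MSC-1 signals lay around the array medians, and the log2 difference was 3.91 ± 0.34. The authors' deposited table has Aqp11 at 13.1-fold.

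The pump entries were divided 1 to 2 between the primary and the MSC-1 side, and values are given for Atp1b1 and Tcirg1. Atp1b1 encodes the beta subunit that folds the sodium-potassium pump and carries it to the surface, and it was higher in primary cells by all 4 probe sets. The probe set with the highest mean log2 signal had 1145, 461 and 528 in primary and 53.6, 46.7 and 59.0 in MSC-1 arrays. Primary replicate 1 was 2.32 times the mean of the others there and 2.17 to 3.29 times in the other 3 probe sets. Atp1b1 had a log2 difference of 3.63 ± 0.34, or 3.22 without that array, and the other probe sets ranged from 4.15 to 5.14. In the authors' deposited table the 4 probe sets run from 7.46-fold to 33.2-fold.

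Tcirg1, the membrane subunit of the vacuolar proton pump that acidifies the space under osteoclasts, had 151, 99.1 and 94.8 in primary and 481, 305 and 368 in MSC-1 arrays. The log2 difference was -1.75 ± 0.24, which is 3.36-fold, against 4.10-fold in the authors' deposited table.

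The upstream sequences of 4 genes are shown because P2rx7 and Asic3 had the largest log2 differences on the MSC-1 side by the probe set that stands for each gene (2 other probe sets of Kcna1 reached -5.64 and -6.17), and because on the primary side Atp1b1 was high and Kcnj9 low in replicate 1. They were chosen after their values were seen. Each is the 250 bases before the gene's start in RefSeq (GRCm38.p6), with capitals for any match on either strand to the TATA motif TATAAA, the CCAAT box, the GC box GGGCGG, the cAMP response element TGACGTCA, the nuclear receptor motif AAGGTCA or the Sox motif ACAAT. These motifs share no position in the windows shown. A match is a description of letters and not a site in use.

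P2rx7 (chr5:122643677-122643926, + strand): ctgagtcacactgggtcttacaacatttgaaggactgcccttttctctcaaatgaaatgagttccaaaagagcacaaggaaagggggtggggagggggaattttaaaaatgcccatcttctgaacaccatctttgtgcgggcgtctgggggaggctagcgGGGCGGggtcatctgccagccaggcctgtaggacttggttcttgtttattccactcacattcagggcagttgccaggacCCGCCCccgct

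Asic3 (chr5:24413201-24413450, + strand): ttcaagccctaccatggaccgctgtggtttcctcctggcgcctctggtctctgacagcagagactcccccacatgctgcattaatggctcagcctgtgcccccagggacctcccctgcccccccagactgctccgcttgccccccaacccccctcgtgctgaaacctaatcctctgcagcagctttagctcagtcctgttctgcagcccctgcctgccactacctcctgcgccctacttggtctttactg

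Atp1b1 (chr1:164458356-164458605, - strand): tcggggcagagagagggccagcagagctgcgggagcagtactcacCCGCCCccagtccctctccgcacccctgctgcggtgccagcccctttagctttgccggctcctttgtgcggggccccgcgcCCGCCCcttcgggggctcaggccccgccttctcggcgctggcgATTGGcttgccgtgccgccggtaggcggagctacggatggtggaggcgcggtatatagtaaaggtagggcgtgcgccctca

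Kcnj9 (chr1:172329323-172329572, - strand): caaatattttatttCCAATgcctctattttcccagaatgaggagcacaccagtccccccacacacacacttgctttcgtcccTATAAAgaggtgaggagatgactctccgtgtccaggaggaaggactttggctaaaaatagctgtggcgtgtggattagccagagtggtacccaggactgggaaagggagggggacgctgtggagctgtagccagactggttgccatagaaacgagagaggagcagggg

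The windows differ in composition. That of Atp1b1 is 70.4% GC with 24 CpG, against medians of 52.4% and 6 over all 32851 windows of the table. That of Asic3 is 61.6% GC with 5 CpG, that of P2rx7 53.6% with 6 and that of Kcnj9 52.0% with 5. The GC box GGGCGG was found in P2rx7 and Atp1b1, as in 32.7% of all windows, and CCAAT in Atp1b1 and Kcnj9, as in 33.8%. TATAAA was found in Kcnj9 alone of the 4, as in 12.4% of all windows. TGACGTCA (1.55% of all windows), AAGGTCA (4.08%) and ACAAT (27.7%) matched in none of the 4, and Asic3 held no match to any of these letters.

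The 5 entries matched by name only are no channels or pumps, and all lay on the primary side. Enkur, an adaptor that ties TRPC channels of sperm to signalling proteins, had 395, 503 and 506 in primary and 5.18, 5.18 and 0.881 in MSC-1 arrays. The log2 difference was 7.28 ± 0.65, or 6.49 without MSC-1 replicate 3, and the authors' deposited table gives 46.6-fold. Trpd52l3, a tumour protein D52-like gene whose symbol only resembles that of a TRP channel, had 160, 223 and 203 in primary and 2.47, 3.53 and 2.40 in MSC-1 arrays, a log2 difference of 6.14 ± 0.31. Trps1, a GATA-type zinc finger repressor, had 103, 88.7 and 80.5 in primary and 5.68, 7.12 and 5.61 in MSC-1 arrays by the probe set with the highest mean log2 signal, which had the smallest log2 difference of the 4 (3.89 ± 0.27, against up to 6.77 ± 0.74). By these probe sets all 3 genes were near or below 7 in every MSC-1 array. Kctd12, an auxiliary subunit of the GABA-B receptor titled for a potassium channel domain, had 57.0, 32.7 and 51.3 in primary and 0.864, 2.24 and 9.56 in MSC-1 arrays. Its log2 difference was 4.04 ± 0.83 and was 3.30 without MSC-1 replicate 1 and 4.93 without MSC-1 replicate 3. The last is a probe set shared by predicted genes, Gm13295 among them, 1 of them titled as similar to a cyclic nucleotide-gated channel, at 3.82 ± 0.21. In the authors' deposited table, Trpd52l3 stands at 13.2-fold, Trps1 at 7.82-fold to 20.0-fold, Kctd12 at 4.28-fold and the shared probe set at 5.66-fold.

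The authors' folds and the deposited signals gave different sizes on the primary side. In 15 of the 27 entries the fold from the signals was more than 1.5 times the authors' fold, and 14 of the 15 were higher in primary cells. In 13 of the 15 the lower group's mean signal was under every array median. The median log2 difference was 4.26 for the 17 entries higher in primary cells and -2.80 for the 10 higher in MSC-1, beside 4.57 and -2.51 in the table. The median of the authors' folds was 8.32 and 6.95 for these entries, beside 8.95 and 5.43 in the table. The entries nearest the limit of the table were Tcirg1, Trpm7, Kctd12 and Clic6, and entries just outside it carry no names here.

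**Figure D2:**
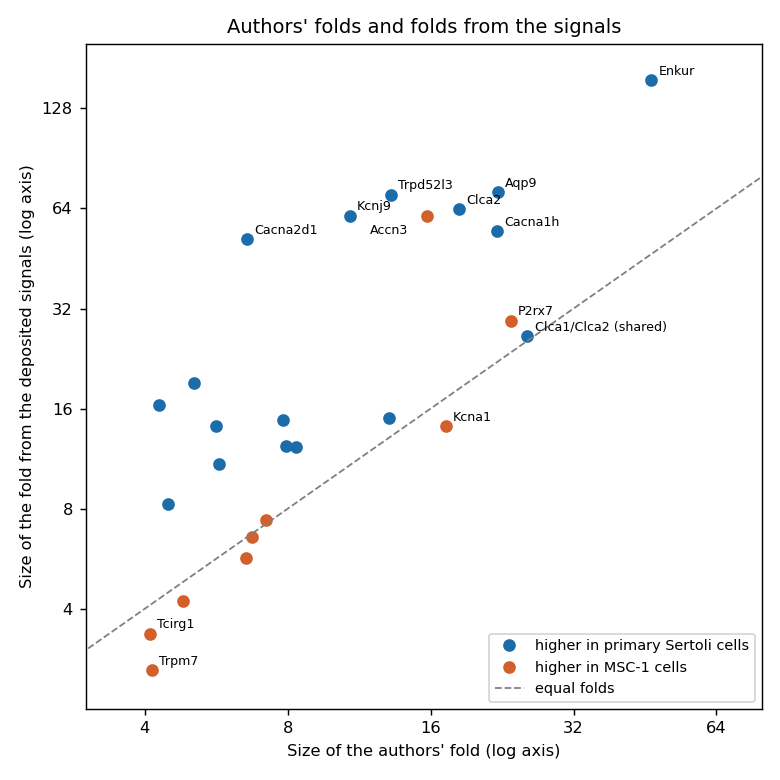
Size of the authors' fold (horizontal, log axis) and of the fold from the deposited signals (vertical, log axis) for 26 entries, blue for those higher in primary Sertoli cells and orange for those higher in MSC-1. Most blue points lie above the dashed line of equal folds, as Cacna2d1 does at 6.57-fold by the authors and 51.6-fold by the signals, and Trpm7 lies below it.

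Within the primary group, the entries differed in which array was high. The 2-fold rule was applied to entries with a mean primary signal of 50 or more, as 3.74% of all such probe sets met it in replicate 1. Of the 17 entries with such a signal, from either side, 3 met it in that array. These were the Clca2 probe set and the probe set shared with Clca1, which are not independent, and Atp1b1, all on the primary side. Clic6, with a mean primary signal under 50, was 3.10 times the mean of the others in replicate 1. In the opposite direction, replicate 1 stood at 0.509 times the mean of the others for Kcnj9, 0.539 times for Cacna1h, 0.634 times for Aqp11 and 0.709 times for Aqp9. The summed germ cell markers were at 0.702 times in that array, with Stra8 at 0.575 times and Acrv1 at 1.60 times among them. The summed macrophage markers were at 0.678 times, with Mpeg1 at 0.628 times and Lcp1 at 1.13 times among them. The summed Sertoli cell markers were at 0.992 times, with Defb19 at 0.238 times and Clu at 1.40 times among them, and the Leydig cell marker Star was at 0.930 times. The peritubular markers were at 1.83 times. The part of these markers in the channel values was not tested. Every entry kept its direction without primary replicate 1, which was bound to hold since no entry's groups overlap.

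**Figure D3:**
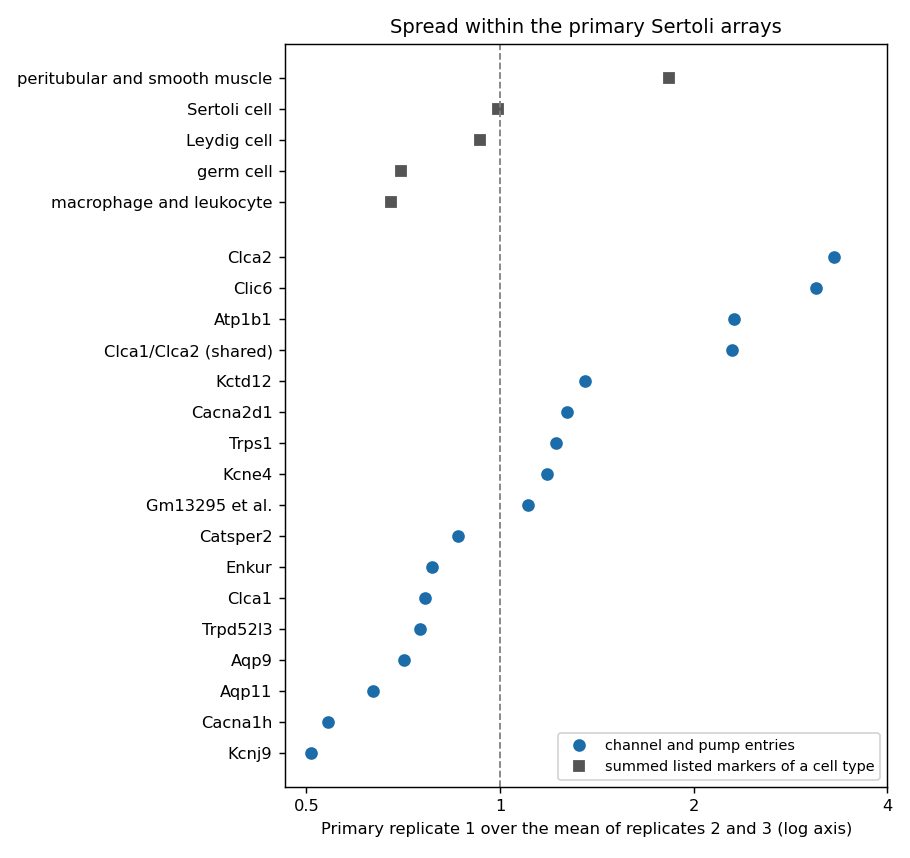
Signal of primary replicate 1 divided by the mean of replicates 2 and 3 (log axis) for the 17 entries higher in primary Sertoli cells (circles) and for the summed listed markers of 5 cell types (squares). Clca2, Clic6, Atp1b1 and the shared Clca probe set lie between 2.30 and 3.30, and Kcnj9 and Cacna1h lie near 0.5.

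Symbol lists of channel and pump families drew 12 further genes from the table, beside the members, of which 7 lay on the primary and 5 on the MSC-1 side. On the MSC-1 side were Lrrc8c and Lrrc8e, subunits of the channel that swollen cells open to shed chloride, and Ttyh1 of the tweety family. Lrrc8c had 105, 69.6 and 77.0 in primary and 322, 293 and 299 in MSC-1 arrays, a log2 difference of -1.88 ± 0.17. Lrrc8e and Ttyh1 had log2 differences of -2.48 ± 0.31 and -2.91 ± 0.45. So the chloride and anion list held 4 entries on the primary side, all members, and 3 genes on the MSC-1 side, none a member.

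On the primary side were Pkd2l1 and Pkd2l2, cation channels of the polycystin family within the TRP superfamily, with log2 differences of 4.01 ± 0.30 and 3.93 ± 0.35. The list of TRP and other cation channels was thus divided 2 to 3. A further Pkd2l2 probe set, with MSC-1 signals below 1, gave 7.21 ± 0.35. Fxyd6, a small regulator of the sodium-potassium pump, differed by 5.60 ± 0.43 on the log2 scale, with MSC-1 signals near 1. It thus lay on the side of Atp1b1.

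Lipid flippases are P-type pumps that turn phospholipids between the leaflets of a membrane. The listed flippase genes lay on the primary side, and the genes of their partner subunits lay on both sides. Atp8b3, a flippase of the sperm acrosome, had 1114, 1771 and 2277 in primary and 24.8, 13.5 and 16.2 in MSC-1 arrays. Its log2 difference was 6.55 ± 0.32, and that of the partner subunit gene Tmem30c was 4.39 ± 0.47 by the probe set with the higher mean log2 signal and 6.50 ± 0.61 by the other. The flippase genes Atp10d and Atp8a1, named after their values were seen to complete the 4 on that side, differed by 4.05 ± 0.40 and 3.71 ± 0.64 on the log2 scale, the latter by 4.37 without MSC-1 replicate 2. On the MSC-1 side, the related partner Tmem30a had a log2 difference of -1.97 ± 0.18 and the pump gene Atp13a3 one of -2.04 ± 0.11. No calcium pump gene was listed, and the only vacuolar pump gene was Tcirg1.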

How the data were processed

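RNA was taken up in Trizol, and 10 ug of it went into biotin-labelled cRNA for Affymetrix arrays, per the labels' protocols. The authors deposited a signal intensity per probe set and array, and a table of signed folds, a score whose sign gives the direction, for 3198 probe sets besides 8 blank lines. The submitters' processing notes name GCOS. How signals were background-corrected and scaled, how the authors' folds were computed, and detection calls are not given in the sources used here, and 3 arrays a group limit what can be resolved.

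Signals below 1 were set to 1 and taken to log2, 64 control probe sets were left out, and limma 3.58.1 (lmFit, eBayes with trend, R 4.3.3) was fitted to 45037 probe sets over all 6 arrays, with Benjamini-Hochberg adjustment. The fit was tested on simulated data. No probe annotation beyond the table was used, so the planned count over all channel genes of the array was made over listed genes only. Of the 27 entries, 24 had a current first symbol in the RefSeq table (GRCm38.p6), 1 was a synonym and 1 was unmatched, and 19 had a promoter window. Python 3.11.15, numpy 2.4.6, pandas 2.3.3 and matplotlib 3.10.9 did the rest.

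The naming rule was that all members are named (1 is not reported here), with values in all arrays for the 4 of an ion group with the largest log2 difference, and that of other genes of a family list the 2 with the largest difference a side under an adjusted p of 0.05 and the 3 with the highest mean level are named. The signal minimum of 50 and the 2-fold rule for single arrays were set after the data were seen. The members and lists were chosen with earlier results of these data known. P-values and errors measure the spread between these samples, which may be technical, drawn by limma towards that of probe sets of like level. Replicate numbers are shared by the groups, but deviations of same-numbered arrays did not correlate (r = -0.036, -0.067 and 0.047), so the arrays were not paired. Alternatives were offsets of 16 and 64, quantile normalization, median centring, only probe sets above the median mean level, eBayes without trend, the replicate block, leaving out each array and other choices of probe set.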

Additional observations from a re-analysis of the deposited data

How the results depend on the processing

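The direction of all 27 entries and their side of the threshold held in all 343 values under other settings, leaving out each array included. Since no entry's groups overlap, an offset or a left-out array could not have changed a direction. The entries were also selected on this contrast, so these values are no independent support. Of 97 values of counts and medians under other settings, 89 were classed as unmoved, though some of these counts changed. With channels, pumps and subunits only, 12 instead of 17 entries were called on the primary side. The median log2 difference of entries higher in primary cells was 4.26; it was 3.33 with an offset of 16, 2.0 with an offset of 64, 5.14 with each gene's most different probe set and 3.06 with the authors' folds, an alternative chosen after seeing the data. It ranged from 4.04 to 4.95 when each array was left out, with the highest value without MSC-1 replicate 3. For entries higher in MSC-1 the median of -2.80 became -1.95 and -1.41 with the offsets, and ranged from -2.65 to -2.88 when each array was left out. An offset shrinks folds of dim probe sets by construction. With probe sets under the median mean level left out, 19 entries could be fitted and 10 instead of 17 were called on the primary side, since fewer probe sets were tested. Under that setting the called genes of the family lists numbered 13 on the primary and 14 on the MSC-1 side, instead of 19 and 15. With the replicate number as a block, the calls stayed at 17 and 10, and the listed genes of the family lists at 19 and 15. For 17 entries the lower group's mean was under every array median, so those folds have no firm size.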

Other observations

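Replicate 1 of the primary arrays was high for further genes of the authors' table. The 12 with the largest excess over the brighter of the other primary arrays, among listed genes with a mean primary signal of 50 or more, were chosen here after their values were seen. They were Gpnmb, Cd24a, Ifitm1, Ctsc, Prom1, Sparcl1, Gpx3, Ptgs1, Crisp1, Plac8, Epcam and Cyba, with an excess of 8.44-fold for Gpnmb down to 3.72-fold for Cyba. Cd24a, a surface glycoprotein gene, had 2819, 137 and 368 in the primary arrays, and Gpx3, a secreted peroxidase gene, had 2872, 395 and 591. Ifitm1, an interferon-induced gene, had 1097, 162 and 154, and Epcam, an adhesion gene of epithelia, had 959, 209.6 and 251. The list was tested for no theme, and whether these genes share a source with Atp1b1, Clca2 or Clic6 was not tested.

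In MSC-1, genes that stood highest in replicate 2 beside Kcna1 included Nefm, a neurofilament gene, with 181, 469 and 208, and Igfbp2 with 292, 1023 and 430. Mbp, the myelin basic protein gene, had 2079, 4692 and 2190 in the same arrays. P2rx7, with 374, 418 and 345, was nearly level over them. These genes too were chosen after their values were seen, and whether they share a source with Kcna1 was not tested.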
